A study of Homo sapiens with 56 samples.

Results

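The genes described here encode cochaperones of the HSP70 system. They are 10 of the 21595 named genes of the series, followed across all 56 libraries: 7 HSP40 (J-domain) proteins (DNAJB1, DNAJB4, DNAJB6, DNAJB2, DNAJA1, DNAJA4 and DNAJC7), 2 BAG proteins (BAG3 and BAG1) and 1 small heat shock protein (HSPB1). They were chosen by gene symbol, and all 10 of the 10 were found. Of these, 9 had at least 1 CPM in every library, and DNAJA4 did so in 36 of the 56. All 10 passed the filter on low values in every comparison.

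HSP70 folds client proteins in cycles of ATP hydrolysis. HSP40 proteins deliver clients and start the hydrolysis through their J domain, and BAG proteins act afterwards as nucleotide exchange factors that release the client. Small heat shock proteins hold unfolded proteins without using ATP, and BAG3 links them to HSP70 and to selective autophagy. Many of these genes are targets of HSF1, the transcription factor of the heat shock response, which binds repeats of the short unit nGAAn. Inhibiting the proteasome, the protease complex that degrades ubiquitinated proteins, is a textbook trigger of that response.

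The libraries were poly-A RNA-seq of 4 cultures of mantle cell lymphoma, a B cell malignancy. JEKO-1 and MINO-P had 15 libraries each, and Z138 and MINO-VR had 13 each. The 12 treatment labels were CON (5 libraries), CLF (6), BTZ (6), IBR (11), YM155 (4), S63845 (6), BTZ_CLF (4), IBR_CLF (8), BTZ_YM155 (2), IBR_YM155 (2), BTZ_S63845 (1) and IBR_S63845 (1). BTZ and IBR are the usual short forms of bortezomib, a proteasome inhibitor, and ibrutinib, an inhibitor of the kinase BTK, and the design text speaks of these 2 drug classes. YM155 is known as a suppressor of BIRC5 expression and S63845 as an inhibitor of MCL-1, both survival proteins. CLF, the letters P and VR of the MINO cultures, doses and times are not explained in the sources used here. Each culture is a cell line, so differences between lines are differences between single lines. No label says that libraries of a group came from separate cultures, so p-values measure the spread between these libraries, which may be technical. Many groups hold 1 library, so this spread also includes departures from effects that a model takes as shared between lines.

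The promoter stretches shown were picked from genes whose windows held the letters marked below. Of these, DNAJB1, HSPB1 and DNAJA4 had among the strongest or most line-dependent responses described below, and DNAJB6 holds a longer repeat. BAG3, with the largest mean BTZ difference of all members, held no such letters and is not shown. The stretches come from RefSeq windows on GRCh38.p14 and read 5′ to 3′ on the gene's strand. Capitals mark GAANNTTC or TTCNNGAA, pairs of inverted HSF1 units, each of which is its own reverse complement, so that both strands were searched at once.
DNAJB1, chr19:14518423-14518507, minus strand: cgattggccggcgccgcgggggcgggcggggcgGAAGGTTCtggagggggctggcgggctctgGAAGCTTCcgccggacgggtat
HSPB1, chr7:76302483-76302543, plus strand: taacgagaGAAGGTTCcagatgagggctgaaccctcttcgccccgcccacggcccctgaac
DNAJA4, chr15:78264452-78264541, plus strand: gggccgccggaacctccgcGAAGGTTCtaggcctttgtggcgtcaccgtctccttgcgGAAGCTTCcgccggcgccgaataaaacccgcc
DNAJB6, chr7:157336864-157336963, plus strand: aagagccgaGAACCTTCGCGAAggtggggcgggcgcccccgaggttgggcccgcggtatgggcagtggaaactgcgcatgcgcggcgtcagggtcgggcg

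The pairs began at positions -77 and -47 from the RefSeq transcript start in DNAJB1, at -182 in HSPB1, at -91 and -52 in DNAJA4, and at -131 and -126 in DNAJB6, where they overlap as one triple (TTCNNGAANNTTC or GAANNTTCNNGAA). RefSeq windows were matched for 10 of the 10 genes (16 windows of 300 bases, 250 before the start). A pair was found for 6 of the 10: these 4, DNAJB4 and DNAJA1. A triple was found for 2, DNAJB6 and DNAJA1. Of all 35116 RefSeq windows of that length, 13.5% held a pair and 0.49% a triple. By gene, 16.2% of 27305 held a pair and 0.608% a triple in any window. The windows of DNAJB2, DNAJC7, BAG1 and BAG3 held none of these letters, which says nothing about binding elsewhere or to other spellings.

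In the deposited hg38 coordinates, DNAJB1 (ENSG00000132002) lies at chr19:14513789-14560392, DNAJB4 (ENSG00000162616) at chr1:77979175-78017965 and DNAJB6 (ENSG00000105993) at chr7:157335381-157417440. DNAJB2 (ENSG00000135924) lies at chr2:219279342-219286899, DNAJA1 (ENSG00000086061) at chr9:33025273-33039908, DNAJA4 (ENSG00000140403) at chr15:78264086-78282197 and DNAJC7 (ENSG00000168259) at chr17:41976421-42021377. BAG3 (ENSG00000151929) lies at chr10:119651380-119677820, BAG1 (ENSG00000107262) at chr9:33247820-33264721 and HSPB1 (ENSG00000106211) at chr7:76302673-76305814. The kit does not mark strand, and exons of DNAJB1, DNAJA4, DNAJB4 and DNAJC7 overlap exons of other genes. Reads from such stretches cannot be told apart, and the largest overlap with a protein-coding neighbour was 5.75% of the exon bases (DNAJB1 with TECR).

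Libraries held 5.51 to 21.6 M reads, as recovered from steps in the low values, with a median of 15.99 M. Mitochondrial genes took 1.91% to 80.5% of it (median 6.69%), so levels are given as nuclear CPM, counts per M reads (CPM) after those genes were left out. MS4A1, CD79A, CD79B, PAX5, CCND1 and SOX11, markers of B cells and mantle cell lymphoma, were at or above 1 CPM in all 56 libraries. Of 5 T cell genes, CD3E and CD2 reached it in 0 libraries, CD3D in 1, CD3G in 13 and CD8A in 29, and their part in the results was not tested. Pairs of libraries whose names differ by a final letter (8 pairs) were much alike: over 9 members, leaving out the low DNAJA4, their levels differed by a median of 1.06-fold, against 1.40-fold for the Z138 groups of 2.

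Libraries of 1 group or treatment could lie far apart for these genes. The library labelled JEKO-1 BTZ replicate 3 held DNAJB1 at 53.9 CPM, BAG3 at 9.74, HSPB1 at 131 and DNAJB2 at 8.71, all below JEKO-1 CON (178, 35.5, 603.5 and 74.9). In that library DNAJA4 (25.7 against 6.77 CPM), DNAJB4 (26.3 against 17.5) and DNAJB6 (204 against 171) were above JEKO-1 CON. The library labelled Z138 YM155 (1 library) held DNAJB1 at 3122 CPM, the highest of all 56, whereas the YM155 libraries of the other lines held 63.9 to 189. Z138 S63845 replicate 2 held 570 CPM of DNAJB1, against 155 in replicate 1. Z138 IBR_CLF replicate 1 held 178, against 639 in replicate 2. Z138 IBR held 2760 and 579 CPM, and the IBR libraries of both MINO cultures were also split, as given below. In bulk libraries, fewer cells of a kind and less RNA per cell cannot be told apart.

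**Figure D1:**
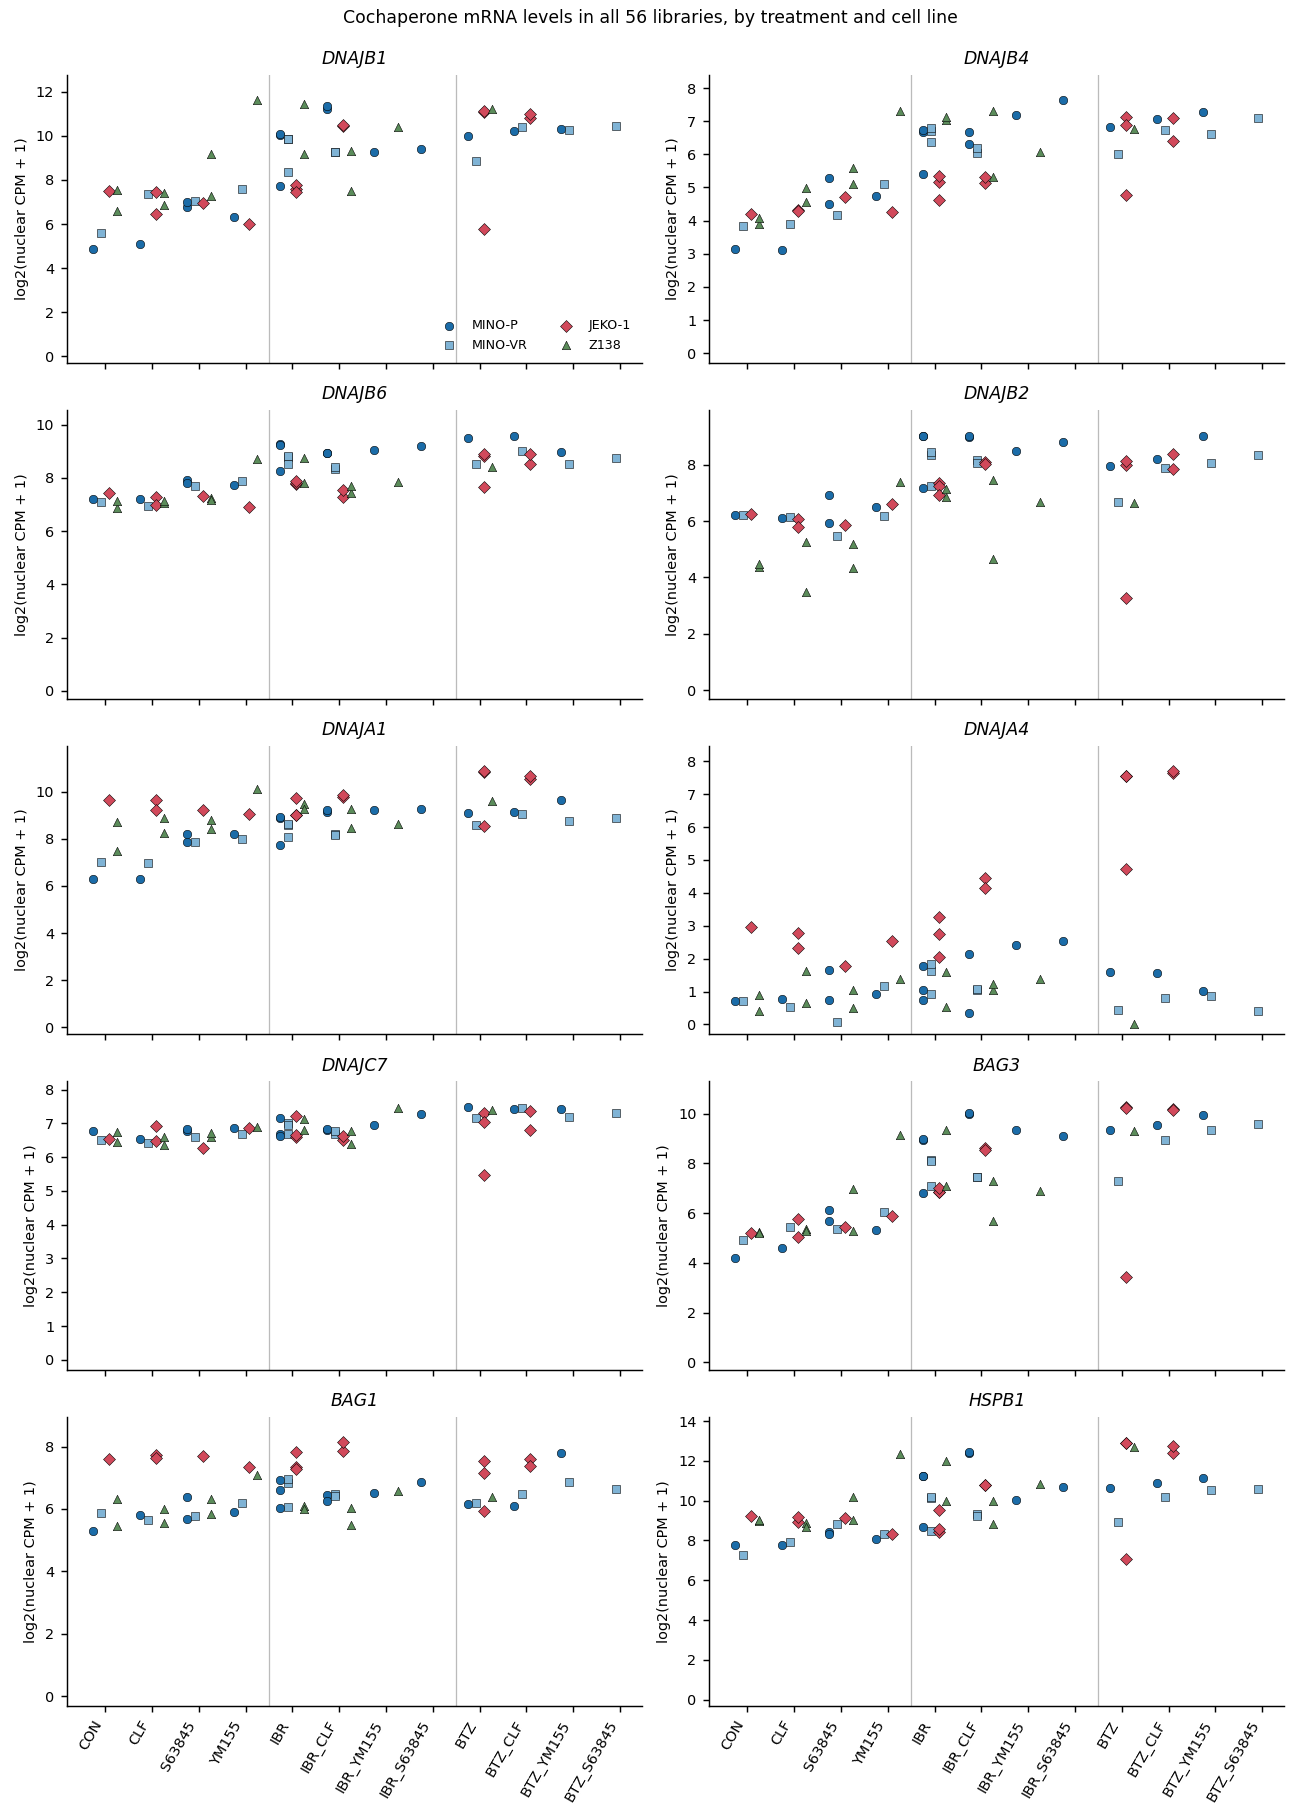
Level of each cochaperone gene in every library, as log2(nuclear CPM + 1), by treatment label (horizontal) and cell line (colour and shape); grey lines separate libraries with neither drug, with IBR and with BTZ. BTZ-containing libraries of DNAJB1, BAG3 and HSPB1 sit above the CON libraries of their line except JEKO-1 BTZ replicate 3 (DNAJB1 at 53.9 CPM), and DNAJA4 exceeds 5 CPM only in JEKO-1.

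BTZ-containing libraries had higher levels of nearly all of these cochaperones than BTZ-free libraries of the same line. In the model of the 21 CON, CLF, BTZ and BTZ_CLF libraries, which averages the effect over the 4 lines, 9 of the 10 rose and none fell (limma with Benjamini-Hochberg adjustment over 15621 genes, adjusted p under 0.05). Over all genes tested, 8.39% rose and 21.7% fell. The median log2 difference was 1.71 for the 10 genes and -0.20 for all genes. This model takes the CLF effect as equal in all lines and with or without BTZ. The group was led by BAG3, DNAJB1 and HSPB1, and BAG1 was the 1 gene that did not pass. With only the libraries without CLF, 0 members and 0 of all genes were called, at log2 differences of 3.59 for DNAJB1, 3.58 for BAG3 and 2.48 for HSPB1.

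DNAJB1, the main heat-inducible HSP40 of the cytosol, was at 28.3 CPM in MINO-P CON, 46.8 in MINO-VR CON, 178 in JEKO-1 CON, and 96.4 and 188 in the 2 Z138 CON libraries. Under BTZ it was at 1019 CPM in MINO-P, 462 in MINO-VR, 2332 in Z138, and 2137, 2232 and 53.9 in JEKO-1. Under BTZ_CLF it was at 1198 CPM in MINO-P, 1349 in MINO-VR, and 1795 and 2031 in JEKO-1. Every BTZ-containing library of these except the last JEKO-1 one was thus above every CON library. The mean log2 difference over lines was 3.93 ± 0.61 (SE), a 15.3-fold rise (limma adjusted p = 0.00022). Without JEKO-1 BTZ replicate 3 it was 4.11 ± 0.24 (limma adjusted p = 2.415e-09).

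BAG3, the BAG protein that joins HSP70 to small heat shock proteins, was at 17.6 CPM in MINO-P CON, 29.2 in MINO-VR, 35.5 in JEKO-1, and 36.97 and 36.2 in Z138. Under BTZ it was at 641 CPM in MINO-P, 154 in MINO-VR, 634 in Z138, and 1230, 1189 and 9.74 in JEKO-1. Under BTZ_CLF it was at 745 CPM in MINO-P, 489 in MINO-VR, and 1158 and 1121 in JEKO-1. The CON libraries lay in a narrow band and the BTZ-containing ones far above it, with the same exception as for DNAJB1. For BAG3 the log2 difference came to 4.04 ± 0.74 (SE, limma adjusted p = 0.00082), or 4.27 ± 0.16 without that library (limma adjusted p = 4.353e-11).

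HSPB1, the small heat shock protein also called HSP27, was at 216 CPM in MINO-P CON, 154 in MINO-VR, 603.5 in JEKO-1, and 506 and 524 in Z138. Under BTZ it was at 1594 CPM in MINO-P, 493 in MINO-VR, 6614 in Z138, and 7523, 7726 and 131 in JEKO-1. Under BTZ_CLF it was at 1874 CPM in MINO-P, 1171 in MINO-VR, and 5312 and 6796 in JEKO-1. MINO-VR BTZ was the lowest of these after the last JEKO-1 library, and lay within the range of the CON libraries of other lines. On the log2 scale HSPB1 was higher by 2.91 ± 0.64 (SE, limma adjusted p = 0.0029), or 3.10 ± 0.16 without JEKO-1 BTZ replicate 3 (limma adjusted p = 5.418e-10).

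Among the other HSP40 genes, DNAJB4 and DNAJB6 rose with the smallest errors relative to their size. DNAJB4, a close relative of DNAJB1, went from 7.78 CPM in MINO-P CON, 13.2 in MINO-VR, 17.5 in JEKO-1, and 14.03 and 16.04 in Z138 to 113, 63.5, 138.01, 118 and 26.3, and 109 in the BTZ libraries of MINO-P, MINO-VR, JEKO-1 (3 libraries) and Z138. All 6 BTZ libraries were above all 5 CON libraries. The log2 difference was 2.80 ± 0.28 (SE, limma adjusted p = 7.05e-06). The line effects of the same model were 3.82 in MINO-P, 2.51 in MINO-VR, 2.30 in JEKO-1 and 2.59 in Z138, each called. That joint model pools the spread over lines, and no line was fitted alone.

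DNAJB6, known for holding back the aggregation of polyglutamine and other amyloid-forming proteins, was at 116 to 171 CPM in the 5 CON libraries, with a median of 141. In the 6 BTZ libraries it was at 204 to 716 CPM, so the groups did not overlap. Its log2 difference was 1.70 ± 0.17 (SE, limma adjusted p = 7.37e-06). Each of its 4 line effects in that joint model was called too, at 2.33, 1.73, 1.36 and 1.39 in the order above.

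DNAJA1, a constitutive cytosolic HSP40, was at 77.2 CPM in MINO-P CON, 128.5 in MINO-VR, 800 in JEKO-1, and 180 and 418.5 in Z138. Under BTZ it was at 543 CPM in MINO-P, 381 in MINO-VR, 778 in Z138, and 1836, 1867 and 377 in JEKO-1. The lines started far apart, so the treatments overlapped across lines although each line's BTZ libraries, the last JEKO-1 one excepted, were above its own CON. On the log2 scale DNAJA1 was higher by 1.72 ± 0.29 (SE, limma adjusted p = 0.00045).

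DNAJB2, an HSP40 with ubiquitin-interacting motifs, and DNAJC7, a J protein with tetratricopeptide repeats that also contacts HSP90, passed narrowly. DNAJB2 was at 19.8 to 74.9 CPM in CON, and under BTZ at 244 in MINO-P, 102 in MINO-VR, 98.6 in Z138, and 254, 278.5 and 8.71 in JEKO-1. Its log2 difference was 1.67 ± 0.57 (SE, limma adjusted p = 0.0356), and 1.83 ± 0.21 without JEKO-1 BTZ replicate 3 (limma adjusted p = 1.974e-06). DNAJC7 varied least of the 10 over the 56 libraries (42.9 to 179 CPM), with CON at 86.8 to 109 and BTZ at 42.9 to 179. Its log2 difference was 0.68 ± 0.22 (SE, limma adjusted p = 0.0316). With mitochondrial genes kept in the total, as deposited, it was 0.27 (limma adjusted p = 0.167), so this call rests on the scaling. The call of DNAJB2 was lost in 15 of 28 alternatives and that of DNAJC7 in 11 of 28, several of them with a single library left out.

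BAG1, a nucleotide exchange factor that also links HSP70 to the proteasome, was at 38.0 to 191 CPM in CON and 59.99 to 184 in BTZ, and the groups overlapped throughout. Its log2 difference was 0.35 ± 0.22 (SE, limma adjusted p = 0.255). Without JEKO-1 BTZ replicate 3 it was 0.39 ± 0.13 (limma adjusted p = 0.0166), and then 10 of the 10 genes passed, while the calls over all genes went from 4694 to 7738.

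The mitochondrial share moved with some of these levels. It was 67.6% and 67.5% in JEKO-1 BTZ replicates 1 and 2, 80.5% and 65.5% in JEKO-1 BTZ_CLF, 9.92% in JEKO-1 BTZ replicate 3 and 1.91% in JEKO-1 CON, and its part in the JEKO-1 values was not tested. In the MINO-P, MINO-VR and Z138 BTZ libraries the share was 4.11% to 5.73%, against 2.17% to 3.92% in their CON libraries. There DNAJB1 was 36.0-fold, 9.87-fold and 16.4-fold above the CON mean of its line, and BAG3 36.4-fold, 5.29-fold and 17.3-fold. MINO cultures had 1 library for each of these treatments, and the model then assumes that they vary like the other groups.

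DNAJA4 was the 1 member whose BTZ effect differed between the lines (limma F-test over the 4 line effects, adjusted p = 0.0135). Over all genes 2.75% differed. In JEKO-1 this HSP40, a cytosolic relative of DNAJA1, was at 6.77 CPM in CON and at 5.81 and 3.97 in CLF. It was at 186, 186 and 25.7 CPM in BTZ, and at 199 and 207 in BTZ_CLF. All 5 BTZ-containing JEKO-1 libraries, BTZ replicate 3 included, were above the BTZ-free ones. In MINO-P it was at 0.638 CPM in CON and 2.004 in BTZ, in MINO-VR at 0.630 and 0.356. In Z138 it was at 0.325 and 0.867 CPM in CON, and no read was seen in BTZ, which allows up to 0.154 CPM.

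The JEKO-1 log2 difference of DNAJA4 was 4.44 ± 0.55 (SE, limma adjusted p = 0.000146). The other lines gave 0.82 ± 0.74 in MINO-P, 0.01 ± 0.74 in MINO-VR and -0.73 ± 0.85 in Z138, none past the threshold. The mean over lines, 1.14 ± 0.37 (limma adjusted p = 0.0287), is therefore carried by JEKO-1. Its call was lost in 8 of 28 alternatives, among them a pseudocount of 0.1 CPM (0.79, limma adjusted p = 0.212). Outside JEKO-1 the highest DNAJA4 level was 4.75 CPM, in MINO-P IBR_S63845, and differences between such levels rest on few reads. The difference between lines kept its call in all 26 alternatives run, with adjusted p from 6.256e-06 to 0.0478 (limma).

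For the other 9 members the difference between lines was not called, with adjusted p of 0.438 to 0.949. That count depended on 1 library and on the scaling. Without JEKO-1 BTZ replicate 3, BAG3 (limma adjusted p = 0.0082), HSPB1 (0.021) and DNAJA1 (0.0395) were called too, and on the deposited scale 6 members were. The calls over all genes moved with it, from 430 to 3130 without that library and to 4313 on the deposited scale. Without that library the effect of BAG3 was 5.03 ± 0.32 in MINO-P, 2.93 ± 0.32 in MINO-VR, 4.92 ± 0.25 in JEKO-1 and 4.20 ± 0.37 in Z138, lowest in MINO-VR. That of HSPB1 was 2.99 ± 0.32, 1.96 ± 0.32, 3.62 ± 0.24 and 3.84 ± 0.36 in the same order, again lowest in MINO-VR. That of DNAJA1 was 2.83 ± 0.32, 1.82 ± 0.32, 1.22 ± 0.25 and 1.30 ± 0.37, highest in MINO-P, where its CON level was lowest.

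**Figure D2:**
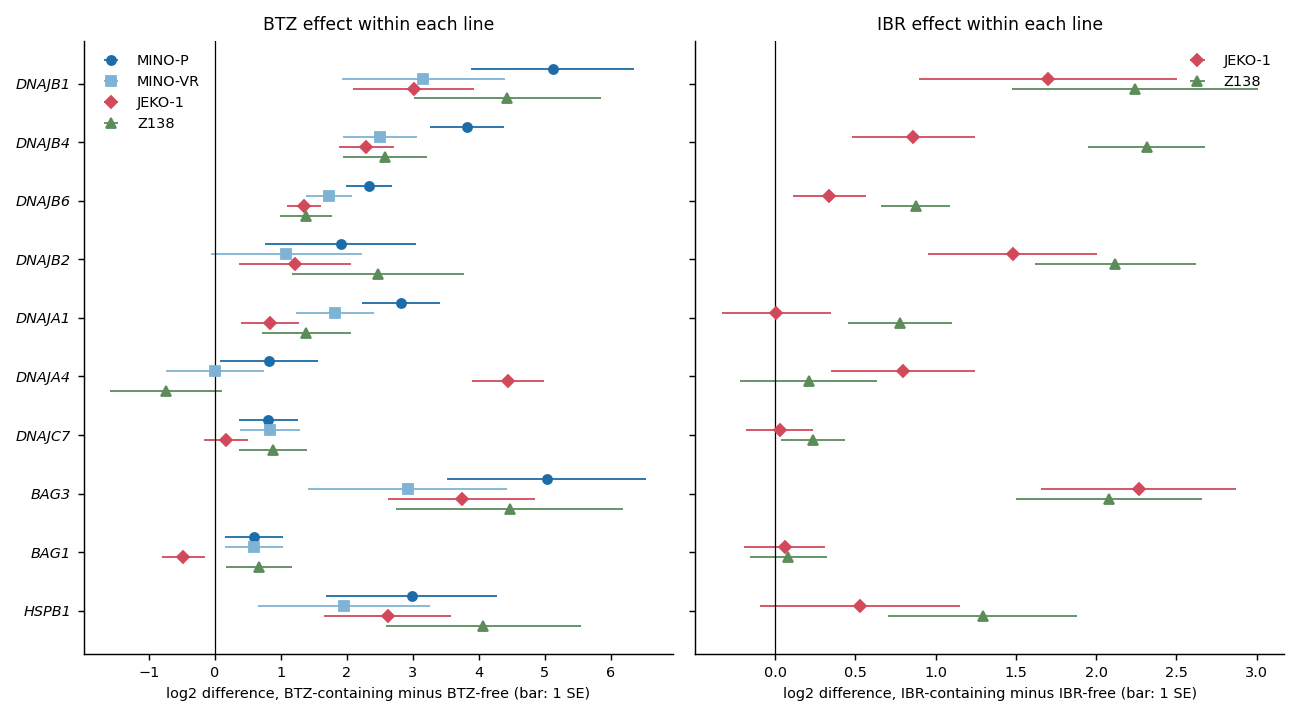
Log2 difference between BTZ-containing and BTZ-free libraries (left) and between IBR-containing and IBR-free libraries (right) for each cochaperone gene within each line, with all libraries kept; bars are 1 SE from limma. All genes but BAG1 (-0.47 for BTZ in JEKO-1) and DNAJA4 (-0.73 for BTZ in Z138) lie above 0 in every line, some with bars that cross 0. DNAJA4 stands out in JEKO-1 at 4.44 for BTZ.

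IBR-containing libraries also had higher levels of part of the group. In JEKO-1 and Z138, whose IBR and CON libraries carry the same kind of library name, the model of 16 CON, CLF, IBR and IBR_CLF libraries called 5 of the 10 higher and none lower (limma, 15456 genes): BAG3, DNAJB1, DNAJB2, DNAJB4 and DNAJB6. Over all genes 9.43% rose and 11% fell. The median was 0.76 for the 10 genes and 0.06 for all genes. This comparison and that of BTZ share their CON and CLF libraries of JEKO-1 and Z138. Its model, too, takes the CLF effect as equal in both lines and with or without the drug. DNAJB1 departed from this: IBR_CLF stood at 7.15-fold the IBR mean in JEKO-1 and at 0.245-fold in Z138. CLF alone stood at 0.730-fold and 1.01-fold the CON mean in the same order.

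BAG3 was at 113, 113.5 and 129.2 CPM under IBR in JEKO-1, against 35.5 in CON, and at 655 and 134 in Z138, against 36.97 and 36.2. Under IBR_CLF it was at 388 and 366 CPM in JEKO-1 and at 50.9 and 157 in Z138. All 9 IBR-containing libraries were above the CON libraries of their line. The log2 difference was 2.17 ± 0.42 (SE, limma adjusted p = 0.0028).

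DNAJB1 under IBR was at 193, 214 and 176 CPM in JEKO-1, hardly apart from the 178 of its 1 CON library, but at 1367 and 1414 in JEKO-1 IBR_CLF. In Z138 it was at 2760 and 579 CPM under IBR and at 178 and 639 under IBR_CLF, against 96.4 and 188 in CON. The level in JEKO-1 was thus high in the IBR_CLF libraries and in Z138 highest in 1 IBR library. The log2 difference was 1.97 ± 0.55 (SE, limma adjusted p = 0.0202). It lost its call with only the libraries without CLF (1.67, limma adjusted p = 0.0809) and with no filter on low values (limma adjusted p = 0.0601). The JEKO-1 IBR_CLF libraries had mitochondrial shares of 60.7% and 59.1%, against 13.5% to 20.9% in JEKO-1 IBR, and the part of this in the result was not tested.

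DNAJB2 was at 163, 149.5 and 119 CPM in JEKO-1 IBR, against 74.9 in CON, and at 115 and 140.5 in Z138 IBR, against 19.8 and 21.2. Its log2 difference was 1.80 ± 0.36 (SE, limma adjusted p = 0.0036). DNAJB4 was at 34.8, 39.6 and 23.7 CPM in JEKO-1 IBR, against 17.5, and at 131 and 138.4 in Z138 IBR, against 14.03 and 16.04. Its log2 difference was 1.59 ± 0.27 (SE, limma adjusted p = 0.0013). DNAJB6 differed by 0.61 ± 0.16 (SE, limma adjusted p = 0.0135), and by 0.22 on the deposited scale (limma adjusted p = 0.518), so this call rests on the scaling.

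The remaining 5 did not pass. HSPB1 was at 342, 378 and 739 CPM in JEKO-1 IBR against 603.5 in CON, and at 4017 and 998 in Z138 IBR against 506 and 524, with a log2 difference of 0.91 ± 0.43 (limma adjusted p = 0.144). Without Z138 IBR_CLF replicate 1 it was 1.20 ± 0.40 and was called (limma adjusted p = 0.0389), making 6 of the 10. DNAJA4 differed by 0.50 ± 0.31, DNAJA1 by 0.39 ± 0.23, DNAJC7 by 0.13 ± 0.14 and BAG1 by 0.07 ± 0.17, with adjusted p of 0.247 to 0.800. In JEKO-1, DNAJA4 was at 20.7 and 16.7 CPM under IBR_CLF and at 5.71, 8.56 and 3.11 under IBR.

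No member's IBR effect was called different between JEKO-1 and Z138 (limma; 0.246% of all genes were, 38 genes, or 75 with the Z138 pairing as a block), and 1, DNAJB4, had an unadjusted p under 0.05. DNAJB4 differed by 0.86 ± 0.38 in JEKO-1 and by 2.31 ± 0.37 in Z138 (difference 1.45 ± 0.53, limma adjusted p = 0.265). Over all genes, 2029 had such an unadjusted p. Without Z138 IBR_CLF replicate 1, which held DNAJB4 at 39.2 CPM against 158.5 in replicate 2, that difference was 1.90 ± 0.32 and was called (limma adjusted p = 0.0169), for 1 of the 10 members and 157 of all genes.

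In the MINO cultures IBR and CON libraries carry different name series, and no MINO treatment had libraries of both series. They enter together only in the model of all 56 libraries with a term for the series. That term can be estimated only if treatment effects are taken as the same in MINO as in JEKO-1 and Z138. The calls below are therefore no separate test of IBR in the MINO cultures. The 56-library model also holds the libraries of the previous comparison. In it 5 members were called higher against CON and none lower (limma, 17203 genes; 4.37% of all genes rose and 6.39% fell): DNAJB4 by 2.16, BAG3 by 2.44, DNAJB1 by 2.35, DNAJB2 by 1.90 and DNAJB6 by 1.01 on the log2 scale. The adjusted p was 0.00025, 0.0256, 0.0368, 0.0144 and 0.0036 in that order. MINO-P IBR held DNAJB1 at 1045, 1073 and 207 CPM, and MINO-VR IBR at 925, 925 and 330. In both cultures the 2 libraries named alike were the high ones, and the library with a name of its own was lower. Calls over all genes were 1851 in this model. Without Z138 it called 0 of the 10 and 967 of all genes, and with JEKO-1 and Z138 alone 0 and 191. Without Z138 CON replicate 2 it called 2 of the 10 and 1081 of all genes. It called 3 without MINO-P CON replicate 1, Z138 CON replicate 1 or Z138 IBR replicate 1, with 1297, 1389 and 1657 of all genes.

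YM155, S63845 and CLF alone were not associated with called changes of any member against CON in that model. For YM155 and S63845 too, the MINO libraries and their CON carry different name series. For YM155, 0.738% of all genes were called higher and 0.407% lower. An unadjusted p under 0.05 was found for 2509 of the 17203 genes. Among them was 1 member, DNAJB4 (log2 difference 1.29 ± 0.46, limma adjusted p = 0.155). DNAJB4 was at 25.9 CPM in MINO-P, 33.3 in MINO-VR, 18.1 in JEKO-1 and 157 in Z138 under YM155. DNAJB1 was at 79.1, 189, 63.9 and 3122 CPM in the same order, and BAG3 at 38.7, 64.6, 57.4 and 564. The Z138 library alone stood at the level of BTZ-treated cells. Its name ends in a capital A, an ending described under the processing, and it has no partner without that ending. The JEKO-1 one lay below its CON for DNAJB1. Without the Z138 YM155 library, 0 members and 9 of all genes were called, against 197 genes with it.

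For S63845, 0% of genes were called in either direction (limma; 428 genes and 0 members at an unadjusted p under 0.05). DNAJB1 was at 109 and 126 CPM in MINO-P, 128.8 in MINO-VR, 124 in JEKO-1, and 155 and 570 in Z138. Without that last library 0 members were called as well. For CLF, 0% were called as well (62 genes and 0 members unadjusted). DNAJB1 under CLF was at 33.4 CPM in MINO-P, 162 in MINO-VR, 173 and 86.6 in JEKO-1, and 115 and 171 in Z138. The CON library was at 28.3 CPM in MINO-P and 46.8 in MINO-VR, so the CLF library lay above it in both.

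Libraries with BTZ and YM155 or S63845 held DNAJB1 and BAG3 above the other agent alone. DNAJB1 was at 1251 CPM in MINO-P BTZ_YM155 and 1205 in MINO-VR BTZ_YM155, which is 15.8-fold and 6.38-fold above YM155 alone in the same culture. BAG3 was at 973 and 653 CPM, or 25.2-fold and 10.1-fold above. In MINO-VR BTZ_S63845 (1 library), DNAJB1 was at 1374 CPM and BAG3 at 768, which is 10.7-fold and 18.9-fold above S63845 alone, with no replicate check. In the model of all libraries, in which the YM155 arm holds the high Z138 library, 0 members were called for BTZ_YM155 against YM155 (limma; 0.343% of genes higher and 0.209% lower). Of the members, 4 (DNAJB1, DNAJB4, BAG1 and BAG3) had an unadjusted p under 0.05, as did 1835 of the 17203 genes. Without the Z138 YM155 library 0 members were called as well. BAG1 was at 223 CPM in MINO-P BTZ_YM155, its highest level in that line, against 59.0 under YM155.

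IBR_YM155 gave different pictures in its 2 lines, each with 1 library. In MINO-P, DNAJB1 was at 620.5 CPM, or 7.84-fold above YM155 alone, and BAG3 16.9-fold above. In Z138 DNAJB1 was at 1324 CPM, below the 3122 of YM155 alone, and BAG3 was at 116 against 564. Of these Z138 libraries only the YM155 one has a name ending in a capital A, so treatment and ending cannot be told apart. MINO-P IBR_S63845 held the highest DNAJB4 level of all 56 libraries, 199 CPM. These single libraries have no replicate check.

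CLF added to BTZ or to IBR gave no called change in any member. For BTZ_CLF against BTZ, 0.0639% of all genes were called higher and 0.00581% lower, and for IBR_CLF against IBR 0% in either direction (limma; 1284 and 1679 genes unadjusted, and 0 members in either). The BTZ arm of that model holds JEKO-1 BTZ replicate 3. Without it 0 members and 3 of all genes were called, against 12 genes with it. The lines went different ways for IBR_CLF: DNAJB1 stood at 7.15-fold its IBR mean in JEKO-1, 3.21-fold in MINO-P, 0.846-fold in MINO-VR and 0.245-fold in Z138. In MINO-P, IBR_CLF replicates were at 2390 and 2579 CPM, above all 3 IBR libraries of that line. HSPB1 was also highest there, at 5470 and 5678 CPM. The difference between lines in this step was not tested.

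**Figure D3:**
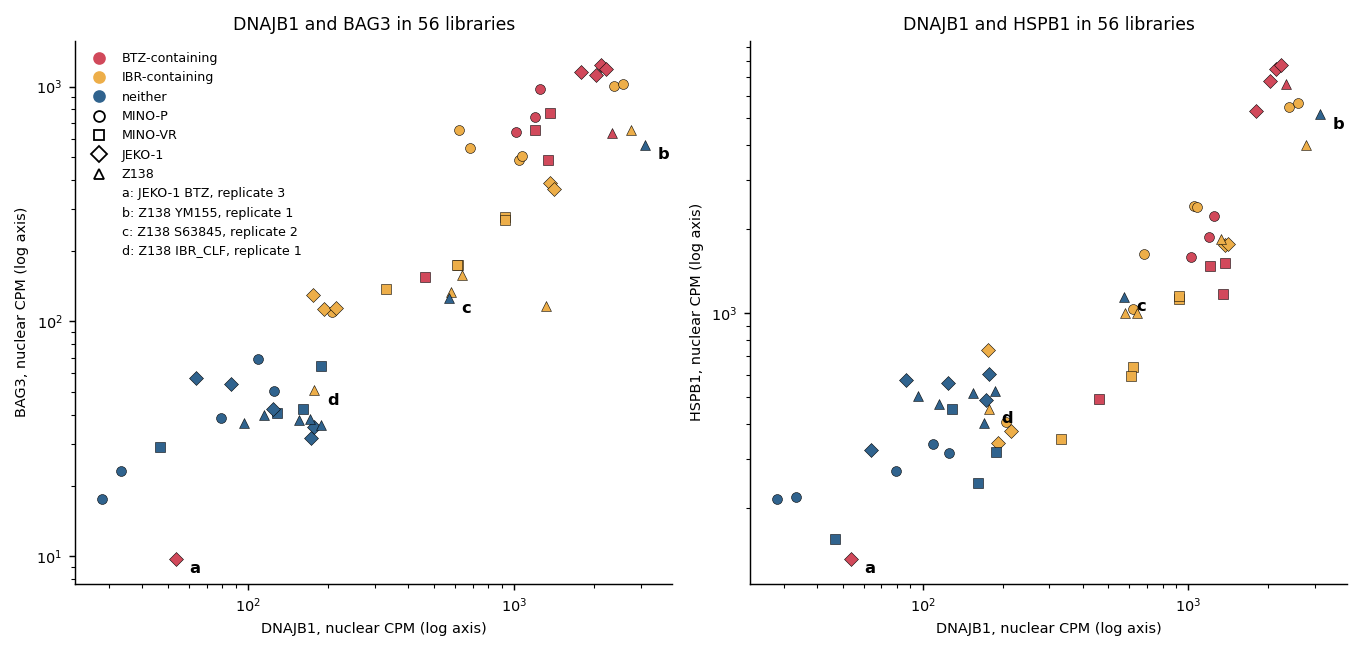
DNAJB1 against BAG3 (left) and HSPB1 (right), in nuclear CPM on log axes, 1 point for each of the 56 libraries; colour gives the drug and shape the line. Most BTZ-containing libraries sit toward the upper right. Exceptions are a (JEKO-1 BTZ replicate 3, DNAJB1 53.9 CPM) and MINO-VR BTZ (DNAJB1 462, BAG3 154 and HSPB1 493 CPM). Some IBR-containing libraries, such as MINO-P IBR_CLF (DNAJB1 2390 and 2579 CPM), and Z138 YM155 (b, 3122 CPM) also sit there.

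The lines also differed in level. Over all treatments in the 56-library model, JEKO-1 against MINO-P gave 3 members higher and 2 lower (limma; 22.8% of all genes were higher and 16.3% lower). BAG1 was higher by 1.28 ± 0.20 (limma adjusted p = 1.39e-06), with JEKO-1 libraries at 59.99 to 280 CPM (median 191) and MINO-P at 38.0 to 223 (median 75.6). DNAJA4 was higher by 2.11 ± 0.45 (limma adjusted p = 0.0002). DNAJA1 was higher by 0.91 ± 0.26 (limma adjusted p = 0.0038), and not on the deposited scale (limma adjusted p = 0.162). DNAJB6 was lower, at -1.05 ± 0.18 (limma adjusted p = 4.64e-06). DNAJB4 was lower, at -0.82 ± 0.29 (limma adjusted p = 0.021). It was not called without JEKO-1 IBR replicate 3 (-0.70, limma adjusted p = 0.0561), with libraries named alike averaged (-0.69, 0.124) or with no series term (-0.51, 0.103). The model takes each treatment effect as equal in all lines. In the CON libraries, which carry different name series, both genes lay the other way. DNAJB6 was at 171 CPM in JEKO-1 and 147 in MINO-P, and DNAJB4 at 17.5 and 7.78.

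Z138 against MINO-P gave 0 members higher and 2 lower (21.2% of all genes higher, 18.2% lower): DNAJB2 at -1.68 ± 0.39 (limma adjusted p = 0.0004) and DNAJB6 at -0.81 ± 0.17 (limma adjusted p = 0.00015). DNAJB2 in Z138 CON was at 19.8 and 21.2 CPM, against 73.6 in MINO-P, 74.0 in MINO-VR and 74.9 in JEKO-1. MINO-VR against MINO-P gave 0 members in either direction (limma, with 4.21% of all genes higher and 3.12% lower). An unadjusted p under 0.05 was found for 3204 of the 17203 genes. Among them was 1 member, DNAJB6 (-0.34 ± 0.16, limma adjusted p = 0.206). For DNAJB1 the MINO-VR difference was 0.02 ± 0.50.

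Across the means of the 37 line and treatment groups, DNAJB1, BAG3, HSPB1 and DNAJB4 ran closely together. Pearson's r on the log2 scale was 0.92 for DNAJB1 with HSPB1, the highest of the 45 pairs, and 0.92 for BAG3 with DNAJB1 and with DNAJB4. DNAJA1 with BAG1 gave 0.72, DNAJA1 with DNAJA4 0.58 and BAG1 with DNAJA4 0.56. These are the 3 members called higher in JEKO-1 than in MINO-P over all treatments. The lowest was -0.08, for DNAJA4 with DNAJC7. These points share lines, libraries and scaling and are given as a description. Of all genes tested, the 5 most like DNAJB1 were HSPA6 (r = 0.96), HSPA1B (0.96), SNX3 (0.94), DEDD2 (0.93) and HSPH1 (0.93). Those most like BAG3 were HSPA6 (0.94), SNX3 (0.94), ZFAND2A (0.93), DEDD2 (0.93) and DNAJB1 (0.92). Those most like HSPB1 were DNAJB1 (0.92), DEDD2 (0.90), HSPH1 (0.90), CACYBP (0.89) and HSPA6 (0.89).

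**Figure D4:**
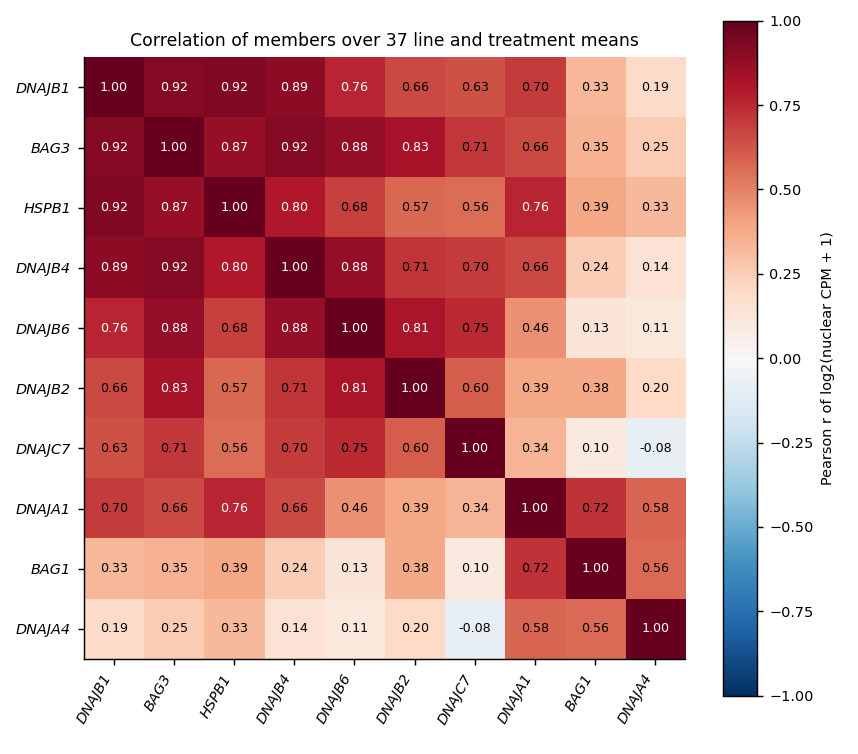
Pearson correlation of log2(nuclear CPM + 1) between the cochaperone genes over the means of 37 line and treatment groups. DNAJB1, BAG3, HSPB1 and DNAJB4 form a block of high values (0.80 to 0.92), and DNAJA4 with DNAJC7 is lowest at -0.08.

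The partners of these proteins moved in part. Of 12 HSP70 genes and HSP70-binding partners, BTZ raised 5 and lowered 0 (8.39% and 21.7% over all genes): HSPA6 (log2 difference 8.11 ± 0.84, limma adjusted p = 9.3e-06), HSPA1A (6.06 ± 0.76), HSPA1B (6.03 ± 0.71), HSPA8 (1.87) and ST13 (1.48). HSPA6, HSPA1A and HSPA1B are the inducible HSP70 genes. The last 2 are near-identical copies, so their reads may be split between them. IBR over lines raised 7 of the 12 and lowered 0 (9.43% and 11% over all genes), led by HSPA6 (4.39 ± 1.09, limma adjusted p = 0.0106), HSPA1A (2.74 ± 0.90) and HSPA1B (2.34 ± 0.66). IBR against CON in all libraries was led by HSPA6 (4.82), HSPA1B (3.77) and SQSTM1 (2.98), the autophagy receptor also called p62.

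Of 33 other HSP40 genes, BTZ raised 6 and lowered 2 (median of the 33: -0.05), and for all lists these counts stand against the 8.39% and 21.7% of all genes. Of 10 other BAG and nucleotide exchange factor genes, BTZ raised 3 and lowered 0: HSPH1 (3.17), HSPA4 (1.43) and BAG2 (1.15). Of 12 HSP90 genes and cochaperones it raised 6 and lowered 2, among the former HSP90AA1 (3.10) and CHORDC1 (2.34). The mitochondrial HSP90, TRAP1 (-1.56), and the steroid receptor cochaperone FKBP5 (-1.73) were the 2 lowered. Of 4 other small heat shock genes tested it raised 1, HSPB8 (0.93), the partner of BAG3. Of 4 heat shock factor genes it changed 0. Of 7 genes of BAG3-directed autophagy tested it raised 4: SQSTM1 (2.86), MAP1LC3B (1.49), HSPB8 and LAMP2 (0.91).

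IBR over lines raised 5 and lowered 3 of 32 other HSP40 genes, against 9.43% and 11% of all genes, and the raised ones included DNAJB9 (1.35), DNAJC3 (0.99) and DNAJB11 (0.59), which reside in the endoplasmic reticulum. It raised 2 and lowered 1 of 10 BAG and exchange factor genes, among them SIL1 (1.25), the exchange factor of that compartment. It raised 0 and lowered 2 of 12 HSP90 genes, again FKBP5 (-1.14) and TRAP1 (-1.31). It raised 4 of 7 BAG3-directed autophagy genes, with SQSTM1 at 2.04, and changed 0 of 4 heat shock factor genes and 0 of 2 small heat shock genes tested. YM155 raised HSPA5 (1.99), DNAJB9 (1.88) and DNAJC3 (1.66) against CON (limma adjusted p = 0.0338, 0.0125 and 0.0084), all of the endoplasmic reticulum. Without the Z138 YM155 library, when calls over all genes fell from 197 to 9, none of these 3 was called (1.84, 1.57 and 1.40, limma adjusted p = 0.167, 0.140 and 0.0998). Genes named here beyond the 3 largest called in a comparison were singled out after their values were seen.

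Between lines the largest called differences in these lists lay elsewhere. JEKO-1 against MINO-P was led by FLNA (-2.27), DNAJC25 (1.43) and HSBP1 (1.43), Z138 against MINO-P by HSPA4L (4.27), HSF4 (1.77) and DNAJC3 (1.64), and MINO-VR against MINO-P by HSPA5 (0.87), SIL1 (0.61) and LAMP2 (0.61).

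Most groups held few libraries: 22 of the 37 line and treatment groups had 1, 11 had 2 and 4 had 3.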

How the data were processed

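RNA-seq of 56 libraries of 4 mantle cell lymphoma cell lines was used. The deposited table gives 21596 rows with log2 values, which the authors made with Partek on hg38 per the submitters' processing notes. Aligner, counter, annotation, strand use and filter are not given in the sources used here. Undone, the deposited log2 values (CPM + 1) summed to 999984.0 to 1000008.6 per library. 1 unnamed row (at most 0.00077% of a library) was left out. 0 value columns were unmatched. Steps in low values gave the depth, with 78.9% to 89.8% of low values whole (tolerance 0.05 reads), too few for a count model.

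Values were rescaled without 15 mitochondrial genes (nuclear CPM). Since 3 reads are 0.146 to 2.18 nuclear CPM, lower values are uncertain, for counting error only. limma 3.58.1 (R 4.3.3) with an intensity trend was run on log2(nuclear CPM + 1), for genes at 1 CPM or more in 2 or more libraries of the fit. Benjamini-Hochberg adjustment covered all genes tested, at a threshold of 0.05. Log2 differences, and the fold given with a model estimate, are on this log2(CPM + 1) scale, which understates changes of low genes. All other folds are ratios of nuclear CPM or of its group means, with no pseudocount. Where libraries of a group lie apart, the highest weighs most in such a mean. The BTZ and IBR models had terms for line, for the drug in each line and for CLF, the last shared by the lines. The model of 56 libraries had terms for treatment, line and name series (8 libraries HK, 48 MCL). Scripts were tested on simulated data. The 8 pairs of libraries named alike differed beyond counting noise (chi-square per degree of freedom 4.06 to 8.28) and stayed separate. That does not show separate cultures, and errors are too small if the pairs are technical repeats. Averaging them was an alternative. Members called were then 8 for the BTZ effect over lines, 4 for IBR against CON and 4 for JEKO-1 against MINO-P, against 9, 5 and 5. Calls over all genes were then 5059, 1365 and 5659. In Z138, 5 groups have 1 library whose name ends in a capital A and 1 without it. The Z138 YM155 library also has this ending, and the Z138 BTZ and IBR_YM155 libraries lack it. The labels do not say what the ending marks. Libraries sharing the ending deviated together (r of 0.235 to 0.619 over 17203 genes in all 10 pairs of groups), so a fit with this pairing as a block was an alternative, chosen after seeing the data.

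The members and lists were chosen with earlier results of these data known. Named were all members, up to 3 list genes with the largest called difference in each comparison, and the 5 genes most correlated with DNAJB1, BAG3 and HSPB1. Alternatives were other scalings, a pseudocount of 0.1, no filter, averaged pairs, no CLF libraries, no series term, fewer lines and leaving out each library.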

Additional observations from a re-analysis of the deposited data

Results flagged for a closer look

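The BTZ effect on DNAJA4 was set apart because a test of the difference itself found that it differed between the 4 lines (limma F-test, adjusted p = 0.01354). The log2 difference was 4.44 ± 0.55 in JEKO-1, 0.82 ± 0.74 in MINO-P, 0.01 ± 0.74 in MINO-VR and -0.73 ± 0.85 in Z138. The mitochondrial share of the JEKO-1 BTZ libraries was 67.6%, 67.5% and 9.92%, and DNAJA4 was above JEKO-1 CON in all 3 of them.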

How the results depend on the processing

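The 27 called member results were recomputed under 773 alternative values: 701 kept their call, 72 lost it and 0 turned direction. Members called for the BTZ effect over lines were 9 (4694 of all genes), and 0 with only the libraries without CLF. With single libraries left out they were 6 to 10. They were 6 without MINO-VR BTZ_CLF (3415 of all genes) and 10 without JEKO-1 BTZ replicate 3 (7738). Without Z138 they were 7 (3245 of all genes, chosen after seeing the data). The calls lost on leaving out a single library were those of DNAJA4, DNAJB2 and DNAJC7. For the IBR effect over lines they were 5, and 3 without CLF libraries. For the BTZ effect by line they were 1 (430 of all genes), 6 on the deposited scale (4313 of all genes), and 1 to 4 with each library left out (4, and 3130 of all genes, without JEKO-1 BTZ replicate 3). For IBR against CON they were 5 (1851 of all genes), and 0 with JEKO-1 and Z138 only (191 of all genes). They were 0 without Z138 (967 of all genes, chosen after seeing the data), and 2 to 5 with each library left out. For the IBR effect by line they were 0, and 0 to 1 with each library left out. The cause of these shifts was not tested, beyond fewer libraries in the fits.

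The median BTZ difference of all genes was -0.20 on nuclear CPM, -0.51 on the deposited scale and -0.09 with size factors, and the members' median lay 1.92, 1.82 and 1.96 above it. Differences between low DNAJA4 values are limited by depth. With the ending of the Z138 library names as a replicate block, chosen after seeing the data, members called were 9 for the BTZ effect over lines, 5 for the IBR effect over lines and 0 for the IBR effect by line, and the block changed no call of a member. For the other lines the labels give no such pairing.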
